A study of Mus musculus with 15 samples.

Results

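Kinesins are motor proteins that use ATP to walk along microtubules or to take their ends apart. Members of the family carry organelles and vesicles, build cilia and flagella and move chromosomes in dividing cells. In the male germ line, they act in the meiotic spindle, in the manchette (the microtubule skirt that shapes the head of the spermatid) and in the growing sperm tail. DNA methylation at CpG dinucleotides is high over gene bodies in mouse sperm, while most CpG-rich promoters carry little of it.

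The kinesin genes were taken as the protein-coding genes of the RefSeq annotation of mm10 whose symbol is Kif followed by a digit, or Kifc. CpGs were assigned to a gene when they lay inside its span or within 2 kb of either end. Of 42 such genes, 39 held at least 1 CpG of the deposited tables, and Kif2b, Kif7 and Kif19a held none. The 39 genes held 587 of the 204492 listed CpGs. Of these, 580 lay inside the span of their gene, 7 lay in the flanks, and 11 were also within 2 kb of another protein-coding gene.

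The material was sperm DNA from male C57BL/6 mice, labelled as generation G1, profiled by reduced representation bisulfite sequencing. In this assay MspI cuts the DNA at CCGG, and the bases that bisulfite leaves unconverted in CpG-rich fragments are read as methylated. There were 8 libraries of the protein restricted diet and 7 of the control diet. The labels do not give whether the diet was fed to the sampled mice or to a parent. They also do not give whether each library came from a separate mouse, so the tests treat libraries as the units. In the quasi-binomial test used below, the dispersion was held at 1 or more. Before that bound its median over the kinesin CpGs was 0.933, so at many of them p rests on the counting error of reads. Strain, sex and generation were shared by both groups.

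Summed over the listed CpGs, read counts lay between 6650912 and 10712016 in protein restricted libraries and between 7846118 and 11841657 in control libraries. At the kinesin CpGs they lay between 15233 and 24428 in protein restricted libraries and between 17919 and 26660 in control libraries, and the median coverage of a kinesin CpG over all libraries was 30.5 reads. The smallest methylated count listed for any CpG in any library was 11. A CpG with little methylation was therefore listed only where it was deeply covered, and the lowest mean level of any listed CpG was 1.89%. As a check of the tissue, 7 CpGs upstream of Meg3 and Rasgrf1, regions that are methylated in sperm and only partly methylated in body cells, averaged 94.3% ± 1.42 in protein restricted and 95.5% ± 1.09 in control libraries (SD, n = 8 and 7).

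Most kinesin CpGs lay far from the transcript starts used here. Transcript starts were available for 31 of the listed genes, and 481 CpGs could be placed relative to the nearest start. At some genes, among them Kif14, Kif3a, Kif2c and Kif27, the start used lies inside the gene span. The median distance was 45017 bp. Only 2 CpGs lay within 1 kb of a start used, and 6 lay between 1 and 2 kb. A further 38 lay between 2 and 5 kb, 103 between 5 and 20 kb and 332 beyond 20 kb. These counts depend on the starts used. At Kif2c, on the minus strand, 7 CpGs lay between 117181001 and 117182000, near the 5′ end of the span at 117182624. The nearest Kif2c CpG was nevertheless 2205 bp from the start used. The CpG nearest to a start was 265 bp from the start used for Kif14. That start lies inside the gene span, which begins at chr1:136466301.

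**Figure D1:**
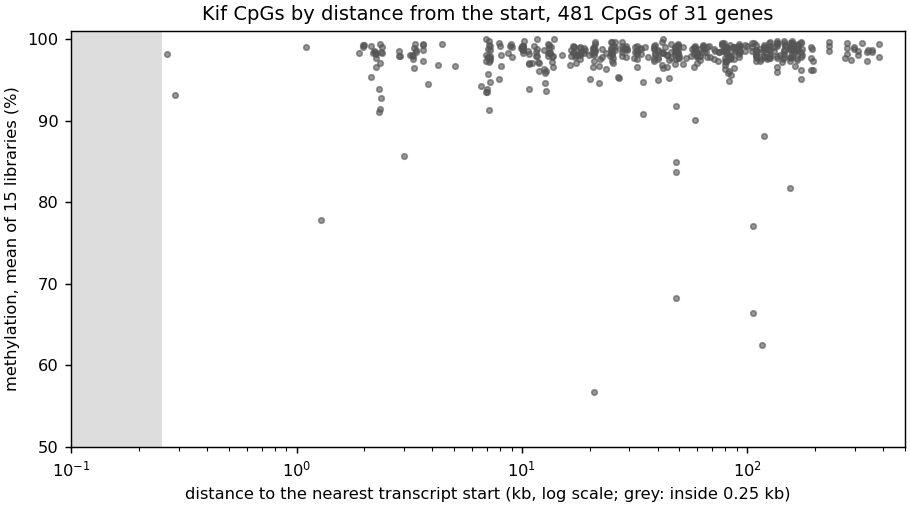
Methylation of 481 kinesin CpGs (mean of 15 libraries, y axis, %) against the distance to the nearest transcript start (x axis, kb, log scale), 1 point per CpG. No CpG lies in the grey zone inside 0.25 kb, and the points beyond 20 kb are mostly above 95%.

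Promoter sequences of 5 kinesin genes are printed here, to show the CpGs and MspI sites they hold. The window runs from 250 bases before the start to 50 bases after it, from RefSeq in build GRCm38.p6, read 5′ to 3′ on the strand of the gene. At Kif14 and Kif3a the start used lies inside the gene span. Capitals mark every CG. The MspI site CCGG, which is its own reverse complement, appears as cCGg. Kif13a was chosen as the gene with the most listed CpGs, Kif14 for its CpG closest to a start, Kif3a for its partly methylated CpG, and Kifc1 and Kifc5b because they are near-copies. The windows lie at chr13:46929669-46929968 (minus strand) for Kif13a, chr1:136467598-136467897 (plus strand) for Kif14, chr11:53567119-53567418 (plus strand) for Kif3a, chr17:33890584-33890883 (minus strand) for Kifc1 and chr17:26916841-26917140 (plus strand) for Kifc5b.
Kif13a: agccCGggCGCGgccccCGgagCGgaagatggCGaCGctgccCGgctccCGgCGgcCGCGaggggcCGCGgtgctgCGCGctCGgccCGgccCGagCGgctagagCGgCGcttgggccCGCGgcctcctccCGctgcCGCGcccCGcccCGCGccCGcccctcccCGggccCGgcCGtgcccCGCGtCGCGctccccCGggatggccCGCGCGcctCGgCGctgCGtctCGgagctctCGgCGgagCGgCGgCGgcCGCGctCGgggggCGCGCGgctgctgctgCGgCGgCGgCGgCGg
Kif14: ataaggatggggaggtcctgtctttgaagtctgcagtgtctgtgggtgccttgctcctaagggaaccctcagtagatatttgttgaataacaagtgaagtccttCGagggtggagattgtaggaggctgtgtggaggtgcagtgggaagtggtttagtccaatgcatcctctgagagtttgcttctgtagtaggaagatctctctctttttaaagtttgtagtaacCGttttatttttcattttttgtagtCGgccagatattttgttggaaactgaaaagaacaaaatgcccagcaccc
Kif3a: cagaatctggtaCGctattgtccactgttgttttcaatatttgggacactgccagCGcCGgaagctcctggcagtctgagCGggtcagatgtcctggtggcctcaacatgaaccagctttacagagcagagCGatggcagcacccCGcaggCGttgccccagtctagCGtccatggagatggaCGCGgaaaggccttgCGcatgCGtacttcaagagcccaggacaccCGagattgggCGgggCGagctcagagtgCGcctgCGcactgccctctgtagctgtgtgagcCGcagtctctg
Kifc1: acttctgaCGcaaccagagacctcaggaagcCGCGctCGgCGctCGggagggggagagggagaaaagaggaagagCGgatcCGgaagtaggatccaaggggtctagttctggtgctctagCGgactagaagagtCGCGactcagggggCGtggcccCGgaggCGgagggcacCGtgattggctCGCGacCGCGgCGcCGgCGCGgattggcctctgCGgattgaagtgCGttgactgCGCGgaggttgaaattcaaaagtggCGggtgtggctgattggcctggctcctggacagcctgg
Kifc5b: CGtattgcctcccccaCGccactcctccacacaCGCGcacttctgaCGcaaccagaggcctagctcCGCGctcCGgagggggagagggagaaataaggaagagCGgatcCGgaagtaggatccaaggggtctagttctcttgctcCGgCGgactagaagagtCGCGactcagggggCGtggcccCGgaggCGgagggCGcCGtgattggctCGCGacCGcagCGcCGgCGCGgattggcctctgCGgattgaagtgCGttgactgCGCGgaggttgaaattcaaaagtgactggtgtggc

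Kif13a held 62 CpGs and 8 MspI sites in these 300 bases, Kifc5b 30 and 5, Kifc1 28 and 3, Kif3a 18 and 1, and Kif14 3 and 0. Over the 37 windows of 33 kinesin genes there were 931 CpGs and 103 MspI sites, with a median of 26 CpGs and a range of 1 to 62. At least 1 CCGG was found in 30 of the 37 windows (81.1%), against 62.2% of the 21263 windows of all protein-coding genes. None of the 37 windows held a listed CpG, against 0.550% of all windows. These counts describe the letters of the windows and the contents of the tables. The methylation level of these promoter windows was not measured here.

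Kinesin genes held 1.74 listed CpGs per 10 kb of span and 2 kb flanks, against 1.04 over all protein-coding genes. In the latter a CpG shared by several genes counts once for each. Their CpGs were almost fully methylated. Of the 587 CpGs, 542 (92.3%) averaged 95% or more over the 15 libraries, against 82.8% of all listed CpGs and 87.9% of the CpGs of other protein-coding genes. Only 9 (1.53%) averaged less than 80%, against 5.59% of all listed CpGs and 3.66% of the CpGs of other protein-coding genes. A single kinesin CpG was below 50%, and 6 were read as methylated in every read of every library. CpGs of a gene share libraries and often reads, so these shares are descriptions of the tables.

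Averaged over the 587 CpGs, methylation was 97.4% ± 0.109 in protein restricted libraries (97.3% to 97.6%) and 97.3% ± 0.176 in control libraries (97.0% to 97.5%; SD, n = 8 and 7). Of the 8 protein restricted libraries, 6 lay above the control mean, and the groups overlapped. The difference was 0.111 points, beside 0.0118 points over all listed CpGs and 0.00294 points over the CpGs of other protein-coding genes. Without control replicate 1, the lowest control library, it was 0.0639 points, and with each gene counted once it was 0.00282 points. It was smaller than the SD between libraries of a diet (0.144 points), and no p is given for this mean.

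**Figure D2:**
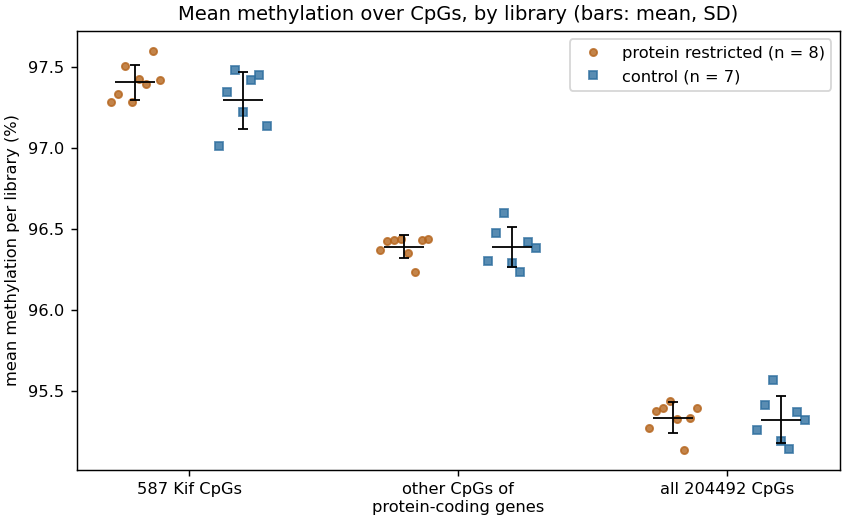
Mean methylation per library (y axis, %) over the 587 kinesin CpGs, the other CpGs of protein-coding genes and all 204492 listed CpGs, protein restricted (8 circles) left of control (7 squares), with mean and SD as bars. The kinesin CpGs are higher than the other sets in every library, and the diets overlap in each set.

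Kinesins are numbered into families by the sequence of the motor domain. The plot of the 39 genes shows them in that order. Among the 33 genes with at least 3 listed CpGs the level over all libraries ran between 94.6% in Kifc3 and 98.8% in Kif16b. Their SD between libraries of a diet had a median of 0.808 points, against 1.04 points over all 9223 genes with at least 3 listed CpGs. The genes were not matched for number of CpGs, coverage or level, so these medians do not show that kinesin genes vary less. Gene levels are methylated reads over all reads, summed over the CpGs of the gene.

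**Figure D3:**
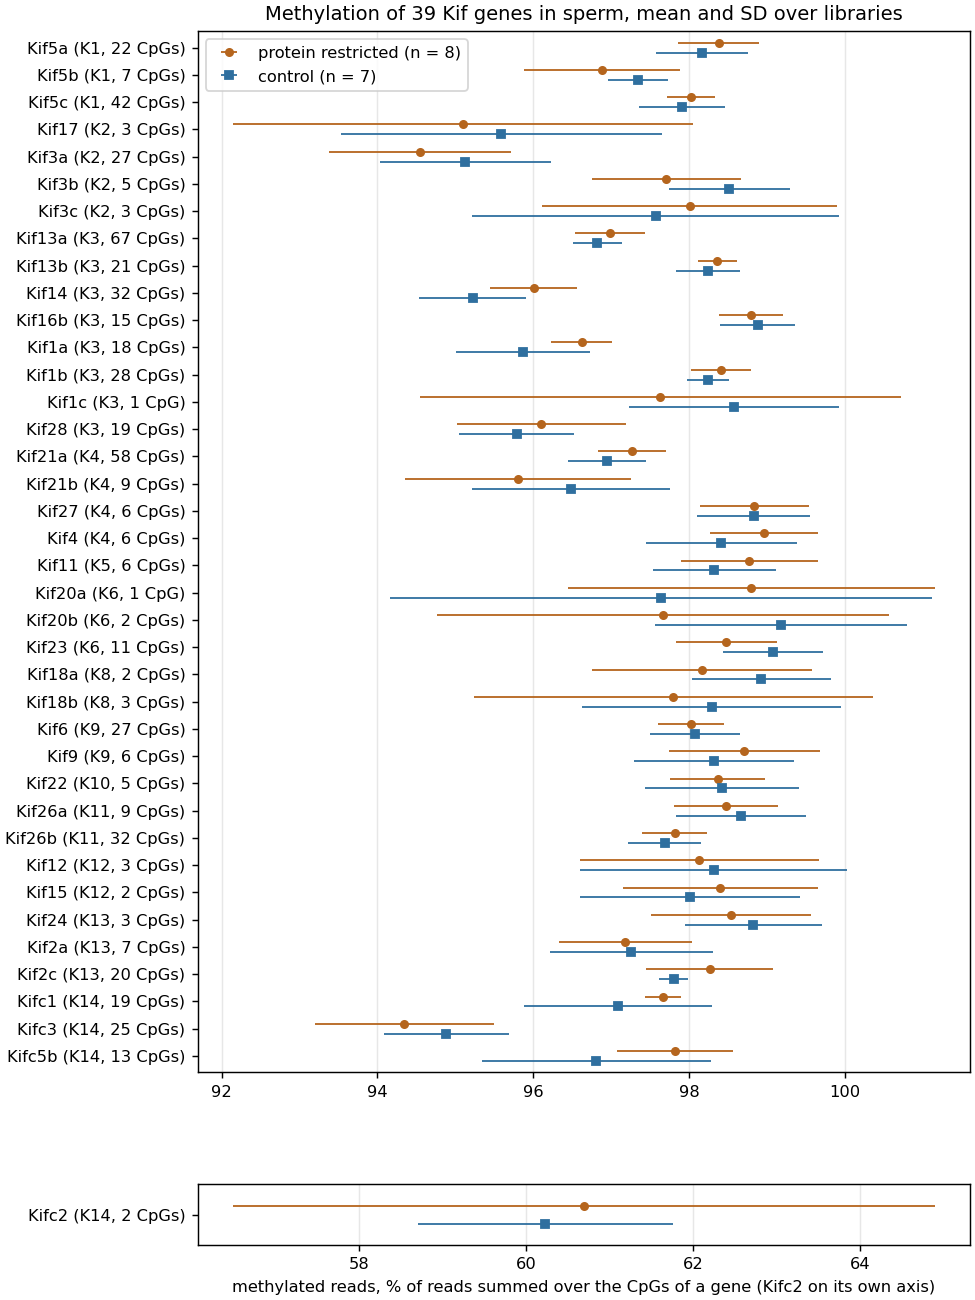
Methylation of the 39 kinesin genes with listed CpGs (x axis, %), mean and SD of 8 protein restricted (circles, upper) and 7 control libraries (squares, lower), in order of family (K1 to K14) with the number of CpGs. Error bars are symmetric SDs and can pass 100%. Kifc2, at 60.5% on 2 CpGs, has its own axis.

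Kinesin-1 is the conventional transport motor, with heavy chains Kif5a, Kif5b and Kif5c, of which Kif5a and Kif5c are mainly neuronal. Kif5c had 42 listed CpGs and averaged 98.0% ± 0.305 in protein restricted and 97.9% ± 0.553 in control libraries. Kif5a averaged 98.4% ± 0.519 in protein restricted and 98.2% ± 0.591 in control libraries on 22 CpGs. Kif5b, the widely expressed member, averaged 96.9% ± 1.001 in protein restricted and 97.4% ± 0.384 in control libraries on 7 CpGs. The groups overlapped at all 3 genes.

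Kinesin-2 includes the heterodimer of Kif3a and Kif3b, which drives intraflagellar transport in the building of cilia and flagella, and Kif17, which in mouse germ cells is known as a partner of a transcriptional coactivator. Kif3a and Kif17 were among the 4 lowest genes with at least 3 CpGs, and Kif17 and Kif3c among the 3 most variable. Kif3a averaged 94.5% ± 1.17 (92.8% to 96.2%, median 94.8%) in protein restricted and 95.1% ± 1.10 (93.2% to 96.6%, median 95.4%) in control libraries. Kif3b averaged 97.7% ± 0.961 (96.4% to 98.97%, median 97.6%) in protein restricted and 98.5% ± 0.780 (96.9% to 99.1%, median 98.6%) in control libraries. At Kif3b 5 of 8 protein restricted libraries were below the control mean, and the ranges overlapped. Kif17 had a level of 95.3% over all libraries and the largest SD between libraries of a diet among genes with at least 3 CpGs, 2.58 points on 3 CpGs. Kif3c followed Kif18b in that order, with 2.12 points for Kif3c and 2.19 points for Kif18b, also on 3 CpGs each. The coverage behind these 3 genes, 17.6 to 29.0 reads per CpG, limits their precision.

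Kinesin-3 motors carry vesicles and organelles, and Kif14 acts in the last step of cell division. This family held 201 of the 587 CpGs. Kif13a, a carrier of endosomes and receptors, had the most of any kinesin gene, 67, and averaged 97.0% ± 0.449 in protein restricted and 96.8% ± 0.311 in control libraries. Kif16b, an endosome motor, was at the top of the genes with at least 3 CpGs, with 98.8% ± 0.410 in protein restricted and 98.9% ± 0.479 in control libraries. Kif27, of kinesin-4, was at the same level over all libraries, 98.8%. Averaged over its CpGs the kinesin-3 family was at 97.3% ± 0.0978 (97.2% to 97.5%) in protein restricted and 97.1% ± 0.192 (96.7% to 97.3%) in control libraries. All 8 protein restricted libraries were above the control mean, and the ranges overlapped.

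In kinesin-4, Kif21a, which slows the growth of microtubules, had 58 CpGs and averaged 97.3% ± 0.432 in protein restricted and 96.9% ± 0.496 in control libraries. Kif4, a chromosome-bound motor, averaged 98.97% ± 0.691 in protein restricted and 98.4% ± 0.968 in control libraries on 6 CpGs. Kif11, the kinesin-5 that pushes spindle poles apart, averaged 98.8% ± 0.884 in protein restricted and 98.3% ± 0.791 in control libraries. In kinesin-6, the cytokinesis family of Kif20a, Kif20b and Kif23, the mean over 14 CpGs was 98.2% ± 0.388 (97.6% to 98.9%) in protein restricted and 99.1% ± 0.550 (97.9% to 99.4%) in control libraries. There 0 of 8 protein restricted libraries were above the control mean, and the ranges overlapped. Over the 13 families, kinesin-3 was the one with all 8 libraries above and kinesin-6 the one with all 8 below the control mean.

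The motors best known from sperm were close together. Kif9, a kinesin-9 that mouse sperm need for normal swimming, averaged 98.7% ± 0.970 in protein restricted and 98.3% ± 1.03 in control libraries on 6 CpGs. Kif6, of the same family, averaged 98.0% ± 0.425 in protein restricted and 98.1% ± 0.578 in control libraries on 27 CpGs. Their groups overlapped. Kinesin-13 members, which take microtubule ends apart, were Kif2a at 97.2% ± 0.848 in protein restricted and 97.3% ± 1.05 in control libraries and Kif2c at 98.3% ± 0.811 in protein restricted and 97.8% ± 0.190 in control libraries.

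Kinesin-14 motors walk towards the minus end of the microtubule, and Kifc1 is known from the manchette and acrosome of rodent spermatids. The family averaged 95.7% ± 0.671 in protein restricted and 95.4% ± 0.729 in control libraries, the lowest of the 13 families. Without Kifc2 it averaged 96.9% ± 0.680 in protein restricted and 96.7% ± 0.760 in control libraries, and kinesin-2 was then the lowest. Kifc3 averaged 94.4% ± 1.15 in protein restricted and 94.9% ± 0.804 in control libraries. Kifc2 averaged 60.7% ± 4.20 in protein restricted and 60.2% ± 1.53 in control libraries, on 2 CpGs that both lie outside its span and also within 2 kb of Cyhr1. Kifc1 and Kifc5b lie on chromosome 17, and the promoter windows printed above matched at 249 of 262 aligned bases (95.04%). Of the 19 listed CpGs of Kifc1 and the 13 of Kifc5b, 11 were spaced alike, between 6945 and 7938 bp from the start in Kifc1 and between 7107 and 8100 bp in Kifc5b. Those 11 averaged 96.5% in Kifc1 and 97.4% in Kifc5b. Reads of such near-copies can be assigned to the wrong gene, so the values of both genes are uncertain.

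Between the diets, no kinesin CpG, gene or 1 kb window passed the threshold of an adjusted p of 0.05 in the quasi-binomial test, in which p-values were adjusted over all CpGs, genes or windows of the tables. The share that passed in all CpGs, in all genes and in all windows was 0% each. At an unadjusted p under 0.05 there were 27 of the 587 kinesin CpGs (4.60%), against 3.79% of all CpGs. Of these 27, 16 were higher and 11 lower in protein restricted libraries. Among the 39 genes there were 2 (5.13%), against 2.93% of all genes, and among 86 windows there were 5 (5.81%), against 3.33% of all windows. By limma on the percent scale there were 32 of the 587 kinesin CpGs, against 9320 of all 204492 (4.56%). There was 1 of the 39 kinesin genes, against 583 of all 12562 (4.64%), and there were 4 of the 86 windows, against 1366 of all 28743 (4.75%). None passed after adjustment. On the logit scale, limma had 0 of the 39 kinesin genes under 0.05, against 4.78% of all genes at a pseudocount of 1 and 4.36% at 0.1. Of the 587 kinesin CpGs there were 30 at a pseudocount of 1 (against 4.56% of all CpGs) and 44 at 0.1 (against 5.28%). Of the 86 windows there were 6 at a pseudocount of 1 (against 5.08% of all windows) and 4 at 0.1 (against 4.47%). Library titles carry numbers that fall into 4 protein restricted and 3 control runs of consecutive values. Every control number is below every protein restricted number, so anything that follows the order of the titles cannot be told apart from diet. With the libraries of a run summed, 6 of the 587 kinesin CpGs were under 0.05 unadjusted (against 1.28% of all CpGs). So were 1 of the 39 genes (against 1.15% of all genes) and 2 of the 86 windows (against 1.39% of all windows). The level was higher in protein restricted libraries at 302 CpGs and lower at 279, with 6 equal. It was higher at 21 genes and lower at 18, with a median difference of 0.12 points, against a median of -0.0016 points over all 12562 genes.

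The groups of libraries overlapped at all 39 genes and all 587 CpGs. Groups that did not overlap were rare in the whole tables too, at 0.0159% of all genes and 0.0191% of all CpGs. With so few of them, overlap at every kinesin gene and CpG does not set the kinesins apart. The groups did not overlap at 1 of the 86 kinesin windows, against 0.0452% of all windows. In size, 1 kinesin CpG (0.170%) differed by 10 points or more, against 0.121% of all CpGs, and 5 (0.852%) by 5 points or more, against 2.33% of all CpGs.

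Among genes that were higher in protein restricted libraries, the smallest p belonged to Kif14, Kifc5b, Kif1a, Kifc1 and Kif2c. Kif14 was between 95.01% and 96.7% (median 96.0%) in protein restricted and between 94.3% and 96.1% (median 95.4%) in control libraries. Of the 8 protein restricted libraries, 7 were above the control mean, and the ranges overlapped. The difference was 0.78 points (96.0% ± 0.559 in protein restricted and 95.2% ± 0.688 in control libraries), with p = 0.0188 before and 0.9997 after adjustment over 12562 genes in the quasi-binomial test. With runs of title numbers summed, p was 0.0825 before adjustment. Of its 32 CpGs, 20 were higher and 12 lower in protein restricted libraries.

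Kifc5b was between 96.5% and 98.6% (median 98.0%) in protein restricted and between 94.96% and 99.1% (median 96.6%) in control libraries. The protein restricted range lay inside the control range, and 7 of 8 libraries were above the control mean. The difference was 1.01 points (unadjusted p = 0.0394, adjusted p = 0.9997, quasi-binomial test). Leaving out the CpGs spaced alike in Kifc1 gave 0.946 points with an unadjusted p of 0.384 for Kifc5b, and 0.429 points with an unadjusted p of 0.296 for Kifc1. Kifc1 itself was between 97.4% and 98.1% (median 97.6%) in protein restricted and between 95.8% and 99.1% (median 97.0%) in control libraries. Its SD was 0.227 points in protein restricted and 1.21 points in control libraries, so that the protein restricted libraries sat inside the wide control range. Its difference was 0.582 points (unadjusted p = 0.0878, quasi-binomial test). Leaving out control replicate 2 made it 0.366 points, and leaving out control replicate 3 made it 0.921 points (unadjusted p = 0.0350).

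Kif1a, the carrier of synaptic vesicle precursors in neurons, was between 96.0% and 97.3% (median 96.6%) in protein restricted and between 94.5% and 96.7% (median 96.2%) in control libraries. All 8 protein restricted libraries were above the control mean, within an overlap. The difference was 0.756 points (unadjusted p = 0.0832, quasi-binomial test). Kif2c, the kinesin-13 of the centromere, differed by 0.461 points (unadjusted p = 0.131, quasi-binomial test).

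In the other direction the smallest p belonged to Kif3b, Kif23, Kif3a, Kif20b and Kif21b. None of them was under 0.05 in the fit with all libraries and all listed CpGs. The difference was -0.809 points at Kif3b (unadjusted p = 0.0921, quasi-binomial test). Kif23, a part of the centralspindlin complex of cytokinesis, was between 97.6% and 99.3% (median 98.4%) in protein restricted and between 98.2% and 100% (median 98.9%) in control libraries. Its difference was -0.605 points (unadjusted p = 0.106, quasi-binomial test), with 6 of 8 protein restricted libraries below the control mean. The other 3 differed by -0.582 points at Kif3a, -1.51 points at Kif20b and -0.682 points at Kif21b, with unadjusted p-values of 0.210, 0.263 and 0.265 in that order (quasi-binomial test). Leaving out 1 library gave between -0.912 (without control replicate 7) and -0.334 points (without protein restricted replicate 2) at Kif3a, and up to -0.826 points at Kif20b (without protein restricted replicate 7) and -0.373 points at Kif21b (without protein restricted replicate 2). At a coverage of at least 20 reads Kif3a was at -2.47 points (unadjusted p = 0.0456) and Kif3b at -1.27 points (unadjusted p = 0.0445, quasi-binomial test). Neither passed after adjustment. In the same fit the unadjusted p was 0.287 at Kif23 and 0.263 at Kif20b, and Kif21b turned to 0.159 points (unadjusted p = 0.955). As a mean of CpG percents Kif3a was at -0.179 points. Kif20b rests on 2 CpGs and was at 100% in 5 control libraries.

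**Figure D4:**
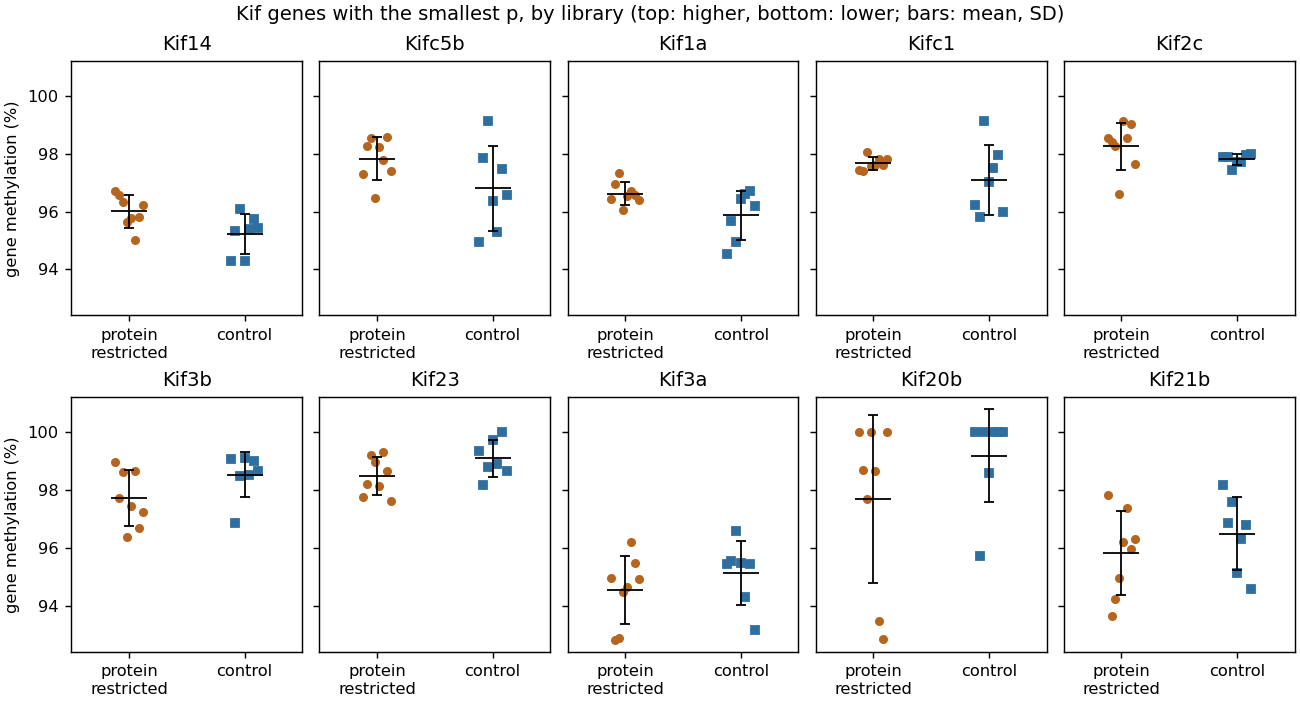
Methylation (y axis, %) in each library of the 5 genes with the smallest p among those higher (top row) and among those lower (bottom row) in protein restricted libraries (8 circles, left) than in control libraries (7 squares, right), with mean and SD as bars. The groups overlap in every panel.

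The single CpGs with the smallest p were near full methylation. The higher ones were in Kif13b, Kifc5b and Kif21a. At Kif13b (chr14:64808204, 1414 bp inside the upper end of the span) the level was 100% in all 8 protein restricted libraries and between 82.8% and 100% (median 100%) in control libraries. The unadjusted p was 0.00487 (quasi-binomial test), and without control replicate 5, the library at 82.8%, it was 0.0741. At Kif21a (chr15:90969700) the level was between 96.6% and 100% (median 100%) in protein restricted and between 87.0% and 100% (median 96.3%) in control libraries, with an unadjusted p of 0.0141. The groups overlapped at 100% at both.

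Kifc5b held CpGs of opposite direction close together. At chr17:26924286 the level was between 97.0% and 100% (median 100%) in protein restricted and between 88.6% and 100% (median 96.2%) in control libraries (unadjusted p = 0.00597, quasi-binomial test). At chr17:26924318 it was between 90.9% and 100% (median 98.5%) in protein restricted libraries and 100% in all 7 control libraries (unadjusted p = 0.0224, quasi-binomial test). The differences were 4.13 points at 26924286 and -2.55 points at 26924318. Without protein restricted replicate 1 the second was -1.61 points (unadjusted p = 0.0594).

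The other lower CpGs were at Kifc3 and Kif16b. At Kifc3 (chr8:95136422) the level was between 92.9% and 100% (median 98.1%) in protein restricted libraries and 100% in all 7 control libraries (unadjusted p = 0.0141, quasi-binomial test). At Kif16b (chr2:142670991) it was between 94.1% and 100% (median 96.9%) in protein restricted libraries and 100% in all 7 control libraries (unadjusted p = 0.00625, quasi-binomial test). The control libraries had no unmethylated read at either.

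The Kif16b CpG has close neighbours at 142670978 and 142670987, near enough to share reads, and the 3 form the window from 142670001 to 142671000. It was the single kinesin window whose groups did not overlap. Its level was between 97.7% and 99.2% (median 98.3%) in protein restricted libraries and 100% in all 7 control libraries. All 8 protein restricted libraries held unmethylated reads there and no control library did. The difference was -1.65 points (98.4% ± 0.501 in protein restricted and 100% ± 0 in control libraries), with p = 0.000813 before and 0.999 after adjustment over 28743 windows in the quasi-binomial test. It passed the threshold with the dispersion not bounded below and with limma on the logit scale (pseudocount 0.1), each of which passed 2 of all 28743 windows. It did not pass with limma on the percent scale (adjusted p = 0.734), with limma on the logit scale at a pseudocount of 1, or with runs of title numbers summed (adjusted p = 0.999).

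The next lower window was in Kif23 (chromosome 9, 61943001 to 61944000), between 95.5% and 99.2% (median 98.4%) in protein restricted and between 98.6% and 100% (median 100%) in control libraries. The unadjusted p was 0.00718 (quasi-binomial test), and the groups overlapped. The higher windows were in Kif13b (64808001 to 64809000 on chromosome 14), at 98.6% ± 1.15 in protein restricted and 96.1% ± 3.64 in control libraries, and in Kif28 (179715001 to 179716000 on chromosome 1), at 99.1% ± 0.760 in protein restricted and 97.5% ± 1.58 in control libraries. Their unadjusted p-values were 0.0365 for Kif13b and 0.0395 for Kif28 (quasi-binomial test). With 1 library left out, p stayed under 0.05 in 9 of 15 fits at Kif13b and in 8 at Kif28. The Kif13b difference of 2.56 points was 1.44 points without control replicate 6.

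The 9 kinesin CpGs under 80% were the exception to full methylation, and they lay in 7 genes. The lowest, at chr15:76659047, was 737 bp outside the span of Kifc2. It was between 20.7% and 46.4% (median 33.3%) in protein restricted and between 26.7% and 34.8% (median 30.95%) in control libraries, and its neighbour at 76658891 was at 88.3% over all libraries. The SD was 8.27 points in protein restricted and 3.07 points in control libraries. The control range lay inside the protein restricted range.

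Kif3a had a CpG at chr11:53588224 that was partly methylated among almost fully methylated neighbours. It lay 20855 bp from the start and had a mean coverage of 72.5 reads. Its level was between 44.4% and 71.7% (median 53.2%) in protein restricted and between 51.3% and 67.9% (median 61.2%) in control libraries, with a difference of -5.68 points (unadjusted p = 0.105, quasi-binomial test). The 5 listed CpGs within 500 bp of it averaged 98.0%, the lowest at 96.6%. The level of the gene from summed reads was 94.8%, and the mean of the percents of its 27 CpGs, in which this deeply covered CpG counts no more than the others, was 96.2%.

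In Kif21a the CpG at chr15:90934126, 851 bp inside the lower end of the span, was between 57.4% and 72.7% (median 67.0%) in protein restricted and between 50.7% and 65.3% (median 58.6%) in control libraries. The difference was 8.07 points (unadjusted p = 0.0297, quasi-binomial test). In Kif13a the CpG at chr13:46824010 was between 65.9% and 78.0% (median 70.8%) in protein restricted and between 42.9% and 73.0% (median 63.2%) in control libraries. The difference was 10.5 points, the one kinesin CpG to differ by at least 10 points (unadjusted p = 0.0469, quasi-binomial test). Both pairs of groups overlapped. A neighbouring Kif13a CpG, at 46824017, went the other way by less than its spread, at 76.2% ± 5.80 in protein restricted and 78.1% ± 5.62 in control libraries.

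**Figure D5:**
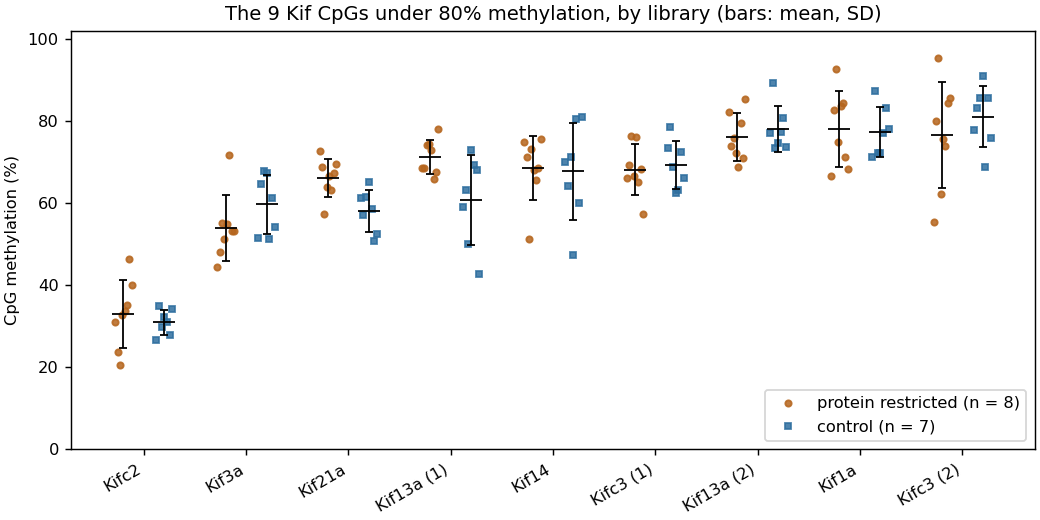
Methylation (y axis, %) in each library of the 9 kinesin CpGs with a mean under 80%, in order of level (x axis, by gene), protein restricted (8 circles) left of control (7 squares), with mean and SD as bars. The protein restricted mean is 8.07 points higher at the Kif21a CpG and 10.5 points higher at the first Kif13a CpG, and the groups overlap at all 9.

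The rest were in Kif14 (chr1:136515963, 68.2% over all libraries), Kifc3 (chr8:95199197, 68.7%, and chr8:95123936, 78.8%) and Kif1a (chr1:93103162, 77.8%). The Kif1a CpG lies 1288 bp before the transcript start and was the closest to a start among those that could be placed. Their diet differences were between -4.57 and 0.788 points, each smaller than the SD of a diet. A dispersion above 2 was uncommon, at 13 kinesin CpGs (2.21%), against 2.86% of all CpGs. Counting error alone gives 1 on average and at times more than 2, so these shares do not count CpGs with extra spread. The highest was at a CpG of Kif21b (chr1:136156346), with 4.03. Its level was between 57.8% and 100% (median 86.1%) in protein restricted and between 55.0% and 100% (median 84.2%) in control libraries, although the 3 listed CpGs within 500 bp averaged 99.1%.

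Other genes of the motor machinery were described for comparison from lists of partners and of other motors. The list of kinesin light chains, adaptors and other partners had 269 listed CpGs at 95.6% ± 0.276 in protein restricted and 95.6% ± 0.150 in control libraries. It also named Cenpe, itself a kinesin motor, and Bicd1 and Bicd2, known mainly as dynein adaptors. Of the 24 genes of this list with CpGs, 11 were higher and 13 lower in protein restricted libraries, with 1 at an unadjusted p under 0.05. Cytoplasmic dynein and dynactin, the minus-end transport motor, had 170 CpGs at 96.7% ± 0.208 in protein restricted and 96.8% ± 0.161 in control libraries, with 0 of 12 genes at an unadjusted p under 0.05. Axonemal dynein heavy chains, the motors that bend the sperm tail, had 445 CpGs at 97.4% ± 0.257 in protein restricted and 97.5% ± 0.162 in control libraries, with 0 of 15 genes at that level. Myosins, the motors of actin, had 712 CpGs at 96.6% ± 0.115 in protein restricted and 96.6% ± 0.0955 in control libraries, with 1 of 36 genes at that level. No gene of these lists passed after adjustment in the quasi-binomial test.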

How the data were processed

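Per the submitters' processing notes, reads were processed with Bismark 0.7.12 and Bowtie2 2.1.0 on mm10. Their roles, trimming and filters are not given in sources used here. The deposited tables hold raw counts of methylated and of all reads per CpG, made by the authors, for the same positions in 15 libraries. Reads without molecular identifiers are not independent molecules, so counting error is a lower limit of the error. No pair of libraries was identical.

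Percent methylation was computed as methylated over total counts. CpGs, genes (span plus 2 kb) and windows of 1 kb with at least 3 CpGs were each fitted with a quasi-binomial logistic regression of counts on diet (F test, 13 residual degrees of freedom, dispersion at least 1, Benjamini-Hochberg over the whole table, threshold 0.05). The fit was also run on simulated binomial counts. These held no extra spread between libraries, so that run does not show how the fit handles such spread. A coverage minimum of 10 removed nothing. Alternatives were a coverage minimum of 20, windows of 500 bp, limma 3.58.1 (R 4.3.3), an unbounded dispersion, summing libraries of consecutive title numbers and leaving out each library. Python 3.11.15, numpy 2.4.6, scipy 1.17.1 and pandas 2.3.3 were used. Gene spans and promoters came from RefSeq tables of GRCm38.p6, and exon and intron positions were not analysed here. All 276 listed positions inside promoter windows fell on the C of a plus-strand CpG. Named genes are the 5 with the smallest p in each direction, 3 CpGs and 2 windows in each direction, the extremes of level and spread, the lowest CpGs, and kinesin-1, kinesin-2 and sperm-related members. Single CpGs under 80% beyond the lowest 3, and the families singled out by direction, were picked after their values were seen. Members and lists were chosen with earlier results of these data known.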

Additional observations from a re-analysis of the deposited data

Results flagged for a closer look

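Among 76 groups of libraries examined, 8 held a library far from the rest of its diet by Dixon's criterion, which chance alone gives in about 1 group in 20. Control replicate 4 had 26660 counts at kinesin CpGs, with the other control libraries between 17919 and 20287.

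At single genes, control replicate 2 was at 95.7% in Kif20b (others 98.6% to 100%) and at 96.9% in Kif3b (others 98.5% to 99.1%). Control replicate 7 was at 96.8% in Kif6 (others 98.1% to 98.4%).

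At single CpGs, protein restricted replicate 6 was at 71.7% at Kif3a 53588224 (others 44.4% to 55.2%). Protein restricted replicate 3 was at 97.0% at Kifc5b 26924286 and replicate 2 at 96.6% at Kif21a 90969700. At both of these CpGs all other protein restricted libraries were tied at 100%, so the flag does not mark a distant library. Control replicate 5 was at 82.8% at Kif13b 64808204 (others 92.9% to 100%).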

How the results depend on the processing

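The count of kinesin genes past the threshold was 0 under all alternatives run. For CpGs it was 1 (Kif16b 142670991) with the dispersion not bounded below, a setting that also passed 194 of all CpGs, and 0 otherwise. For windows it was 1 (the Kif16b window) with that setting and in limma on logit values with a pseudocount of 0.1, and 0 otherwise. With each library left out in turn these counts stayed at 0. At an unadjusted p under 0.05 there were 1 to 4 of the 39 genes, 20 to 30 of the 587 CpGs and 3 to 7 of the 86 windows. For example, without control replicate 1 there was 1 gene (against 2.83% of all genes) and 3 windows (against 3.04%). Without control replicate 2 there were 4 genes (against 2.83%). CpGs numbered 20 without protein restricted replicate 1 (against 3.64%) and 30 without control replicate 3 (against 3.75%). Windows numbered 7 without protein restricted replicate 6 (against 3.26%). The mean difference over kinesin CpGs was 0.0639 to 0.141 points with a library left out and 0.0109 points at a coverage of at least 20, which kept 215 of the 587 CpGs. At that coverage 4 of 33 kinesin genes were at an unadjusted p under 0.05 in the quasi-binomial test, against 3.28% of all genes. So were 10 of the 215 CpGs, against 3.47% of all CpGs, and 4 of 32 windows, against 3.32% of all windows. Of 363 alternative values for 20 named differences 1 changed sign, Kif21b at a coverage of at least 20 (0.159 points). With 1 library left out, Kif14 kept an unadjusted p under 0.05 in 14 of 15 fits and Kifc5b in 6. With runs of consecutive title numbers summed, Kif14 was at 0.0825, the kinesin CpGs under 0.05 numbered 6 and the windows 2, beside the shares of all CpGs and windows given above. With limma on the logit scale no kinesin gene was under 0.05, against 4.78% (pseudocount 1) and 4.36% (pseudocount 0.1) of all genes. Leaving out 1 library moved 8 of the 20 named differences by over 1.5 times, most at the Kif13b CpG without control replicate 5 (2.30 points). The gene levels moved most at a coverage of at least 20, to 84.6% for Kif3a and 89.7% for Kifc3. Leaving out the CpGs spaced alike in Kifc1 and Kifc5b and leaving out Kifc2 from its family were chosen after seeing the data. The cause of these changes was not tested. No paired analysis was possible because the replicate numbers follow the order of accession and pair no libraries. Coverage near 30 reads per CpG and the scarcity of weakly methylated CpGs among those listed limit what these tables can show.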
